A study of Homo sapiens with 6 samples.

Results

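The feedback genes of the ERK pathway are the 10 genes DUSP4, DUSP5, DUSP6, SPRY1, SPRY2, SPRY4, SPRED1, SPRED2, ETV4 and ETV5. They were picked by gene symbol, as known transcriptional targets and modulators of ERK signaling, from a table of 60708 genes. All 10 were among the 17401 genes tested, each of which reached 10 reads in 1 sample or more.

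Growth factors bind receptor tyrosine kinases, which act through adaptors on RAS and from there through the RAF and MEK kinases on the kinase ERK. Active ERK raises the transcription of genes whose products limit the same pathway: dual-specificity phosphatases that remove the activating phosphates from ERK, and Sprouty and SPRED proteins that act further up, at the level of the receptor, RAS and RAF. The ETS factors ETV4 and ETV5 are induced by the same route and carry the signal on to other genes, and the mRNA of all these families is often read as a measure of ERK output. In the kidney, Sprouty genes and ETV4 and ETV5 act downstream of the receptor RET in the branching of the ureteric bud, and clear cell carcinomas that have lost VHL are known to make growth factors such as TGFα.

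Caki-1 is an established human clear cell renal carcinoma line, and the study asked how its transcriptome differs when VHL, the substrate-recognition subunit of the ubiquitin ligase that degrades HIFα proteins, is knocked out. The VC group was 3 samples of Caki-1 cells with a wild-type genotype, infected with a lentiviral CRISPR vector without a guide. The VHL-KO group was 3 samples of Caki-1 cells infected with lentiviral CRISPR carrying a guide RNA against VHL. Both groups therefore carried the lentiviral vector. The study's methods describe VHL-KO Caki-1 cells as clonal, picked in 96-well plates after puromycin selection and screened by immunoblot, so differences from VC cells also hold whatever set the picked cells apart. No source used here says which guide or clone was sequenced, or that the samples of a group came from separate cultures. The p-values below then measure only the spread between these samples, which may be technical.

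Total RNA was sequenced and the reads counted on each gene summed to 31789923, 28463579 and 34881739 in VC replicates 1 to 3 and to 29139722, 22805385 and 22628246 in VHL-KO replicates 1 to 3. Levels are given in CPM, the count of a gene relative to the total of its sample after scaling by edgeR's TMM factors, as mean ± SD over 3 samples. Counts of the edited gene were 1454, 1124 and 1522 (VC) and 929, 657 and 650 (VHL-KO). These VHL counts came to 40.2 ± 2.38 CPM in VC and 31.9 ± 2.49 CPM in VHL-KO cells, with every VHL-KO sample below every VC sample. The log2 fold change of VHL was -0.33 (95% interval -0.55 to -0.11, edgeR adjusted p = 0.0109). VHL was past the threshold of 0.05 in 10 of 15 alternative analyses and not in the other 5, among them those without VC replicate 1 (edgeR adjusted p = 0.0862), without VHL-KO replicate 2 (0.0621) and with offsets for GC content and transcript length (0.191). Small edits made by Cas9 need not lower a transcript, so its RNA count is a weak check of the labels.

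Transcripts that HIF is known to induce separated the groups by more. CA9 counts were 0, 0 and 2 (VC) and 288, 247 and 233 (VHL-KO). The stress-responsive gene NDRG1 and the peptide hormone gene ADM rose, with log2 fold changes of 6.03 and 3.55. EGLN3, which encodes a HIF prolyl hydroxylase, went the other way, from counts of 69, 41 and 67 (VC) to 10, 20 and 19 (VHL-KO; log2 fold change -1.26, edgeR adjusted p = 0.00337). In all, 5 of the 6 HIF targets listed rose and 1 fell (edgeR adjusted p under 0.05), against 28.5% higher and 31.2% lower among all genes tested.

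The feedback genes did not move as a block. In VHL-KO cells 3 of the 10 rose (SPRY1, DUSP5 and DUSP4), 4 fell (ETV4, SPRED1, SPRY2 and SPRED2) and 3 were not past the adjusted p threshold of 0.05 (DUSP6, SPRY4 and ETV5). Of all genes tested, 59.7% were past the same threshold, 28.5% as higher and 31.2% as lower, so the shares of the feedback genes called in each direction are close to those of the transcriptome. Samples of the groups did not overlap for 9 of the 10, against 64.7% of all genes tested, and ETV5 was the exception. A change of at least 2-fold with adjusted p under 0.05 (edgeR) was reached by 1 of the 10, SPRY1, against 26.2% of genes tested. That count was 1 to 3 over the 15 alternatives, with DUSP5, SPRED1 or ETV4 added in some of them. The median log2 fold change of the 10 was -0.39, beside -0.01 for all genes. Library size alone, in place of TMM factors, moved the median of all genes to -0.20, that of the feedback genes to -0.59, and the share of higher genes among all calls from 47.7% to 35.8%. With offsets for GC content and length the median of the feedback genes was -0.25. In bulk RNA a lower level can come from fewer cells with a transcript or from less of it per cell, which cannot be told apart.

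**Figure D1:**
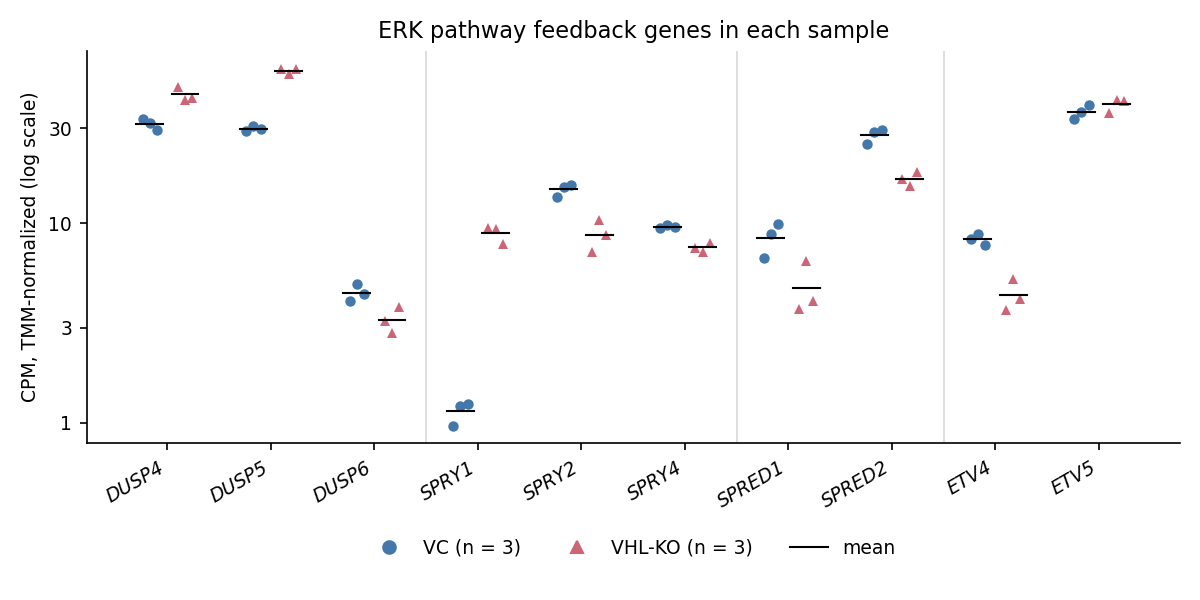
Level of each feedback gene in each sample, in TMM-normalized CPM on a log axis; circles are VC samples, triangles are VHL-KO samples, black bars are means over 3 samples, and vertical lines part the 4 families. SPRY1 moved from a mean of 1.14 to 8.93 CPM, while ETV5 is the gene whose samples overlap between the groups.

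The dual-specificity phosphatases divide by where they work: DUSP4 and DUSP5 are nuclear enzymes and DUSP6 is cytoplasmic, and DUSP5 and DUSP6 act mainly on ERK. DUSP5 (ENSG00000138166.6) lies on the plus strand of chromosome 10 of GRCh38 from 110497907 to 110511533 and has 4 exons in its canonical transcript. It stood at 29.1, 30.9 and 29.8 CPM in VC samples and at 59.9, 56.2 and 59.3 CPM in VHL-KO samples. The groups were far apart against the spread within each, which was 0.895 CPM (SD) in VC and 1.99 CPM in VHL-KO cells. This was a 1.95-fold rise (log2 fold change 0.97, 95% interval 0.76 to 1.17, edgeR adjusted p = 1.22e-08), the most precisely measured change among the 10, with a standard error of 0.10.

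DUSP4 (ENSG00000120875.9) lies on the minus strand of chromosome 8 from 29333064 to 29350684, with 4 exons. Its level was 33.4, 31.8 and 29.5 CPM in VC samples and 48.5, 41.9 and 42.8 CPM in VHL-KO samples. All VHL-KO samples lay above all VC samples, with replicate 1 the highest in each group. DUSP4 rose 1.41-fold (log2 fold change 0.49, 95% interval 0.27 to 0.71, edgeR adjusted p = 0.000372), a smaller change than that of DUSP5.

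DUSP6 (ENSG00000139318.8), on the minus strand of chromosome 12 from 89347235 to 89352501 with 3 exons, did not follow them. It was much scarcer, at counts of 140, 147 and 168 (VC) and 87, 61 and 81 (VHL-KO). At 4.10, 4.95 and 4.43 CPM against 3.26, 2.83 and 3.80 CPM, the VHL-KO samples lay below the VC samples without overlap, and VHL-KO replicate 3 came closest to the VC samples. The log2 fold change was -0.45 (95% interval -0.86 to -0.03) and the edgeR adjusted p was 0.0573, so DUSP6 was not past the threshold. It passed without VHL-KO replicate 3 (log2 fold change -0.55, edgeR adjusted p = 0.035) and with library size alone (-0.64, adjusted p = 0.00897), and its adjusted p reached 0.205 among the 15 alternatives. Of its exonic bases, 28.6% are overlapped by another annotated gene on the opposite strand, ENSG00000274021, and the strandedness of the libraries is not given in the sources used here.

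Levels of different genes were compared per kb of exon. DUSP5 was the most abundant of all 10 feedback genes in either group, with 11.8 ± 0.353 CPM per kb in VC and 23.1 ± 0.787 CPM per kb in VHL-KO cells. The summed level of the 3 phosphatases was 17.1, 17.8 and 17.0 CPM per kb (VC) and 31.1, 28.6 and 30.3 CPM per kb (VHL-KO). The sum was higher in VHL-KO cells, without overlap, under each of 14 settings of scaling, gene length and samples (log2 ratio 0.58 to 0.91). Within the sum DUSP5 took 68.2% ± 1.20 in VC and 76.8% ± 0.842 in VHL-KO cells, whereas DUSP6 took 6.72% ± 0.495 and 2.84% ± 0.364. The ratio of DUSP5 to DUSP6, which does not depend on scaling, was 10.8, 9.50 and 10.3 in VC samples and 28.0, 30.2 and 23.8 in VHL-KO samples.

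The Sprouty genes held the largest change and moved in opposite directions. SPRY1 (ENSG00000164056.11) lies on the plus strand of chromosome 4 from 123396795 to 123403760, with 3 exons in its canonical transcript. SPRY2 (ENSG00000136158.12) lies on the minus strand of chromosome 13 from 80335976 to 80341126, with 2 exons. Both encode inhibitors that are recruited to the membrane after growth factor stimulation and restrain signaling between the receptor and ERK, and SPRY2 also binds the ubiquitin ligase CBL. Because they moved in opposite directions, a promoter window of each is shown, at the start of its canonical transcript, from RefSeq (GRCh38.p14), 300 bases long, 5′ to 3′ on the strand of the gene. RefSeq windows matched 6 of the 10 genes (DUSP6, SPRY1, SPRY2, SPRY4, SPRED1 and SPRED2), with 2 windows for SPRY1 and 3 for SPRY2. The SPRY1 window shown is chr4:123396545-123396844 on the plus strand and that of SPRY2 is chr13:80341077-80341376 on the minus strand. In both, the RefSeq start is also the start of the canonical GENCODE transcript, the last 50 bases lie in its first exon and the rest lies upstream of the gene. Capitals mark the matches to the 5 motifs searched on both strands: ACGTG and GCGTG, the forms of the HIF-binding core; CCGGAA, an ETS core; TGANTCA, the AP-1 site; and TGACG, the CRE half-site.
SPRY1: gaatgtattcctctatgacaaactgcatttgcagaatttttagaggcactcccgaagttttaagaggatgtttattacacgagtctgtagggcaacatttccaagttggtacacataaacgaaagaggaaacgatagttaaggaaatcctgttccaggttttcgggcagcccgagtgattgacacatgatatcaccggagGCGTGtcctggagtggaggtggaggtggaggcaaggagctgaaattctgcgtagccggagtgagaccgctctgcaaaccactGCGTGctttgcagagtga
SPRY2: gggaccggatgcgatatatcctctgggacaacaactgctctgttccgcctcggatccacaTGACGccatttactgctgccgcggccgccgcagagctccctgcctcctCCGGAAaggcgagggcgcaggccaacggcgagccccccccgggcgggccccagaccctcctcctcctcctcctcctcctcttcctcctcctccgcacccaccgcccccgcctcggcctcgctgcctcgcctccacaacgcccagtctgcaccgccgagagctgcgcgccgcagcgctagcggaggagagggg

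The SPRY1 window shown holds GCGTG at positions -50 and 33 from the start, and the other SPRY1 window holds CCGGAA at -67. In the SPRY2 window shown, TGACG is found at -190 and CCGGAA at -142, and the other 2 SPRY2 windows hold none of the motifs. An ETS core is thus found in a window of either gene. Among 35116 RefSeq promoter windows of this length, 36.5% hold GCGTG, 21.4% hold ACGTG, 17.2% hold CCGGAA, 7.71% hold TGANTCA and 24.6% hold TGACG on either strand, so such matches are common. GCGTG was also found in the window of DUSP6, which was not past the threshold, and in a window of SPRED2, which fell. These matches describe the letters in the windows only.

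SPRY1 counts were 33, 36 and 47 (VC) and 254, 203 and 168 (VHL-KO). Scaled to depth, these were 0.966, 1.21 and 1.24 CPM and 9.51, 9.41 and 7.88 CPM. The lowest VHL-KO sample was several-fold above the highest VC sample, and within VHL-KO cells replicate 3 was the lowest. SPRY1 rose 7.82-fold (log2 fold change 2.97, 95% interval 2.54 to 3.40, edgeR adjusted p = 1.19e-11). Its standard error of 0.21 was the widest of the 10, at the lowest VC counts of the 10, and the log2 fold change stayed between 2.77 and 3.08 over the 15 alternatives.

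SPRY2 was at 13.6, 15.3 and 15.6 CPM in VC samples and at 7.22, 10.4 and 8.72 CPM in VHL-KO samples. The highest VHL-KO sample, replicate 2, was below the lowest VC sample, replicate 1. SPRY2 fell by 0.76 on the log2 scale (95% interval -1.08 to -0.44, edgeR adjusted p = 0.000157).

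SPRY4 (ENSG00000187678.10), a further inhibitor of the same family, lies on the minus strand of chromosome 5 from 142310427 to 142326455, with 2 exons. Its level was 9.49, 9.83 and 9.56 CPM in VC samples and 7.56, 7.23 and 7.97 CPM in VHL-KO samples. The spread was small in both groups and they did not overlap, yet SPRY4 was not past the threshold (log2 fold change -0.34, 95% interval -0.66 to -0.03, edgeR adjusted p = 0.0555). It passed in 1 of 15 alternatives, with library size alone (-0.54, edgeR adjusted p = 0.0048), and the range over all 15 was 0.0048 to 0.201. The remaining family member SPRY3 had at most 2 counts in any sample and was not tested.

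Per length, the Sprouty mRNA as a whole differed little while its makeup changed. SPRY1, SPRY2 and SPRY4 together came to 5.93, 6.56 and 6.64 CPM per kb (VC) and 5.80, 6.72 and 5.92 CPM per kb (VHL-KO), with the groups overlapping. The log2 ratio of the means was -0.05, and it ranged from -0.24 with library size alone to 0.18 with upper quartile factors and the longest transcript as length, so the sum has no direction that holds across scalings. The groups did not overlap in 3 of 14 settings, lower in 2 and higher in 1. SPRY1 made up 4.11%, 4.66% and 4.70% of this sum in VC samples and 41.4%, 35.3% and 33.6% in VHL-KO samples. SPRY2 made up 71.5%, 72.5% and 73.3% in VC samples and 38.8%, 48.3% and 45.9% in VHL-KO samples. SPRY1, the minor Sprouty transcript of VC cells, thus came near the level of SPRY2 in VHL-KO cells. It lay above SPRY2 in replicate 1 and below it in replicates 2 and 3. The ratio of SPRY1 to SPRY2 per length, which is free of scaling, was 0.0575, 0.0643 and 0.0641 (VC) and 1.07, 0.731 and 0.732 (VHL-KO). With the length of the longest transcript in place of all exons, SPRY1 took 5.17% to 5.90% in VC and 39.1% to 47.2% in VHL-KO samples. SPRY2 then took 34.5% to 43.7% in VHL-KO samples. The mean of SPRY1 in VHL-KO cells was then above that of SPRY2 (3.42 against 3.25 CPM per kb), so their order depends on the length used.

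**Figure D2:**
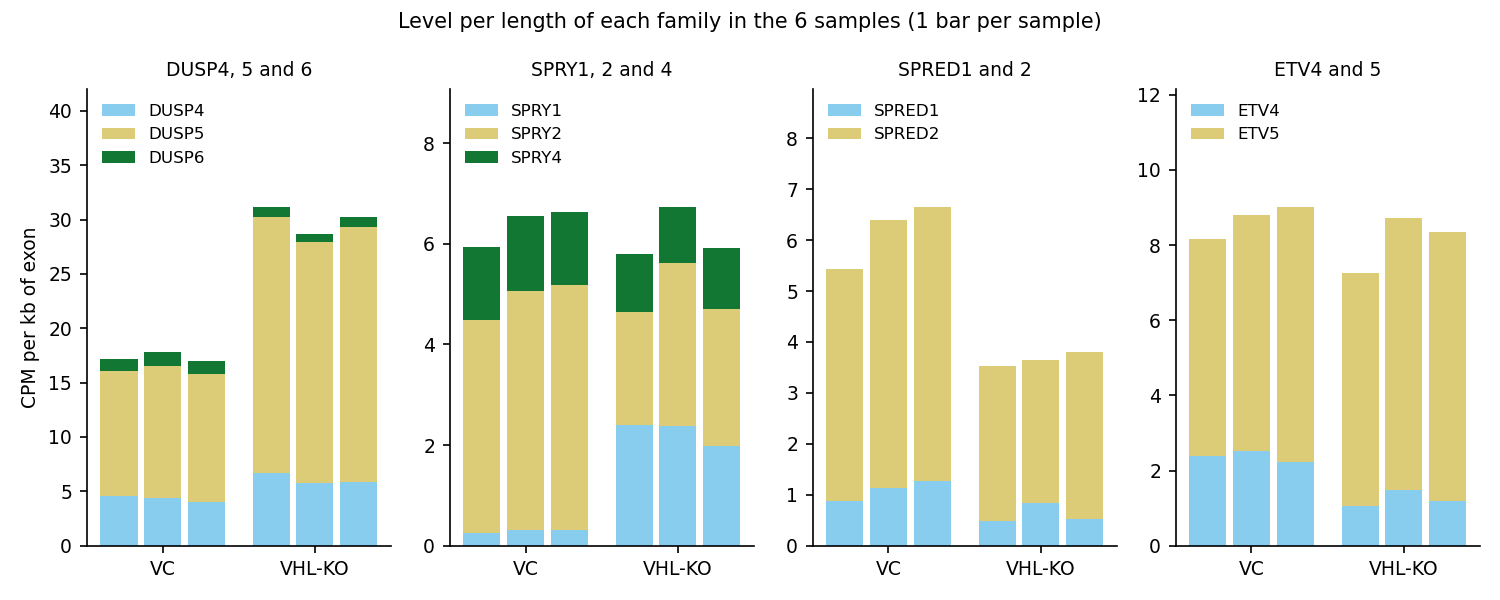
Level per kb of exon of the 4 families, as 1 stacked bar per sample (VC replicates 1 to 3, then VHL-KO replicates 1 to 3), with segments for the genes of each family; the vertical scale differs between panels. The Sprouty bars are of like height in both groups with a larger SPRY1 segment in VHL-KO cells, the DUSP bars are taller and the bars of SPRED1 and SPRED2 shorter in VHL-KO cells.

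SPRED proteins share the Sprouty domain and restrain the pathway at RAS by bringing the GTPase-activating protein neurofibromin to the membrane. SPRED2 (ENSG00000198369.10) is on the minus strand of chromosome 2 from 65310851 to 65432637, with 6 exons. It measured 25.2, 28.9 and 29.6 CPM in VC samples and 16.8, 15.5 and 18.1 CPM in VHL-KO samples. The groups were clear of each other by more than the range within either. SPRED2 fell by 0.73 on the log2 scale (95% interval -0.99 to -0.48, edgeR adjusted p = 1.59e-05).

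SPRED1 (ENSG00000166068.13) is on the plus strand of chromosome 15 from 38252836 to 38357249, with 7 exons, and is the gene mutated in Legius syndrome. It measured 6.74, 8.85 and 9.88 CPM in VC samples and 3.71, 6.49 and 4.08 CPM in VHL-KO samples. VHL-KO replicate 2 stood above its group and close to VC replicate 1, though the groups did not overlap. SPRED1 fell by 0.84 on the log2 scale (95% interval -1.26 to -0.42, edgeR adjusted p = 0.00102). With offsets for GC content and length the fall was smaller and no longer past the threshold (log2 fold change -0.34, edgeR adjusted p = 0.144, the highest of its 15 alternatives), whereas it passed with the offsets and a replicate block together (-0.35).

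Together SPRED1 and SPRED2 came to 6.16 ± 0.634 CPM per kb in VC and 3.66 ± 0.138 CPM per kb in VHL-KO cells. This sum was lower in VHL-KO cells, without overlap, under each of 14 settings of scaling, gene length and samples (log2 ratio -0.94 to -0.63). The share of SPRED1 in this sum was 16.0%, 17.9% and 19.2% (VC) and 13.5%, 22.9% and 13.8% (VHL-KO). VHL-KO replicate 2 was the highest and the other 2 VHL-KO samples were the lowest of the 6, so the share shows no single direction. SPRED3 is not part of the sum.

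ETV4 and ETV5 belong to the PEA3 group of ETS transcription factors and are activated downstream of FGF receptors and RET. ETV4 (ENSG00000175832.13) lies on the minus strand of chromosome 17 from 43527844 to 43579620, with 13 exons. It stood at 8.35, 8.89 and 7.80 CPM in VC samples and at 3.67, 5.24 and 4.17 CPM in VHL-KO samples. Every VHL-KO sample was well below every VC sample. ETV4 fell by 0.94 on the log2 scale (95% interval -1.31 to -0.57, edgeR adjusted p = 7.44e-05), the lowest log2 fold change of the 10.

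ETV5 (ENSG00000244405.8) lies on the minus strand of chromosome 3 from 186046314 to 186110318, with 13 exons. Its level was 33.4, 36.2 and 39.2 CPM in VC samples and 35.9, 41.8 and 41.4 CPM in VHL-KO samples. VHL-KO replicate 1 fell among the VC samples. The log2 fold change was 0.13 (95% interval -0.10 to 0.35) and the edgeR adjusted p was 0.319, an interval that leaves room for a rise of up to 0.35 and a fall of up to 0.10 on the log2 scale. Its sign depended on the scaling, with -0.06 for library size alone, and it passed the threshold with GC and length offsets (log2 fold change 0.28, edgeR adjusted p = 0.00834), within a range of 0.00212 to 0.653 over 15 alternatives.

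The ratio of ETV5 to ETV4 per length was 2.44, 2.48 and 3.06 (VC) and 5.95, 4.86 and 6.03 (VHL-KO). These ratios did not overlap, so the balance of the pair moved toward ETV5 whatever the scaling. Their sum was 8.65 ± 0.437 CPM per kb in VC and 8.11 ± 0.766 CPM per kb in VHL-KO cells, with overlapping samples. Its log2 ratio of -0.09 became 0.02 under upper quartile scaling and -0.28 for library size alone, and the samples did not overlap in 3 of 14 settings, so the sum has no fixed direction.

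**Figure D3:**
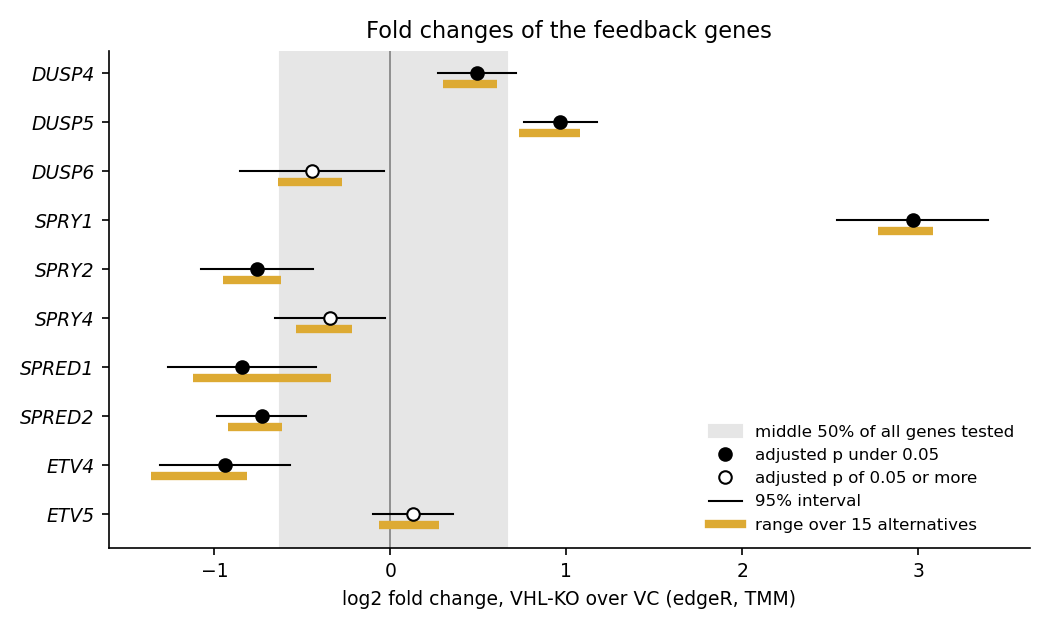
Log2 fold change of each feedback gene in VHL-KO over VC cells (edgeR, TMM), with filled circles for adjusted p under 0.05, black lines for 95% intervals, yellow bars for the range over 15 alternative analyses, and grey for the middle 50% of all genes tested (-0.63 to 0.66). Apart from ETV5, no yellow bar crosses 0, and SPRY1 at 2.97 lies far from the other 9.

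The order of the 10 genes by level per length was largely kept between groups. In VC cells it ran DUSP5, ETV5, SPRED2, SPRY2, DUSP4, ETV4, SPRY4, DUSP6, SPRED1 and SPRY1. Neighbours whose samples overlapped were SPRED2 and SPRY2, SPRY2 and DUSP4, and DUSP6 and SPRED1. Of these, SPRED2 was above SPRY2 within each VC sample, while the order of the other pairs differed between samples. In VHL-KO cells the order was DUSP5, ETV5, DUSP4, SPRED2, SPRY2, SPRY1, ETV4, SPRY4, DUSP6 and SPRED1. There the overlapping neighbours were ETV5 and DUSP4, SPRED2 and SPRY2, SPRY2 and SPRY1, ETV4 and SPRY4, and DUSP6 and SPRED1. Within each of these pairs the order differed between VHL-KO samples. SPRY1 changed place most, from rank 10 at 0.287 ± 0.0378 CPM per kb, above 21.1% of genes tested, to rank 6 at 2.25 ± 0.230 CPM per kb, above 55.0% of them. SPRED1 took the lowest rank in VHL-KO cells at 0.614 ± 0.195 CPM per kb.

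Base composition differed among the feedback genes and moved with the fold changes of all genes, from a median log2 fold change of -0.52 for transcripts with 36% to 38% GC to 0.46 for those with 60% to 62%. SPRED1 has the lowest GC content of the 10 at 36.3%, and the 714 genes within 1 percentage point of it had a median log2 fold change of -0.55, beside its own of -0.84. ETV4 has the highest at 60.6%, where 884 genes of like GC content had a median of 0.47, opposite in sign to the -0.94 of ETV4. Of these 884 genes, 6.9% had a lower log2 fold change than ETV4. For SPRY1, at 44.8% GC, 98.8% of 1386 like genes had a lower log2 fold change. With offsets that remove each library's trend with GC content and length, the log2 fold change of ETV4 was -1.36 and that of SPRY1 was 3.08. The part of base composition in the differences between groups was otherwise not tested.

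**Figure D4:**
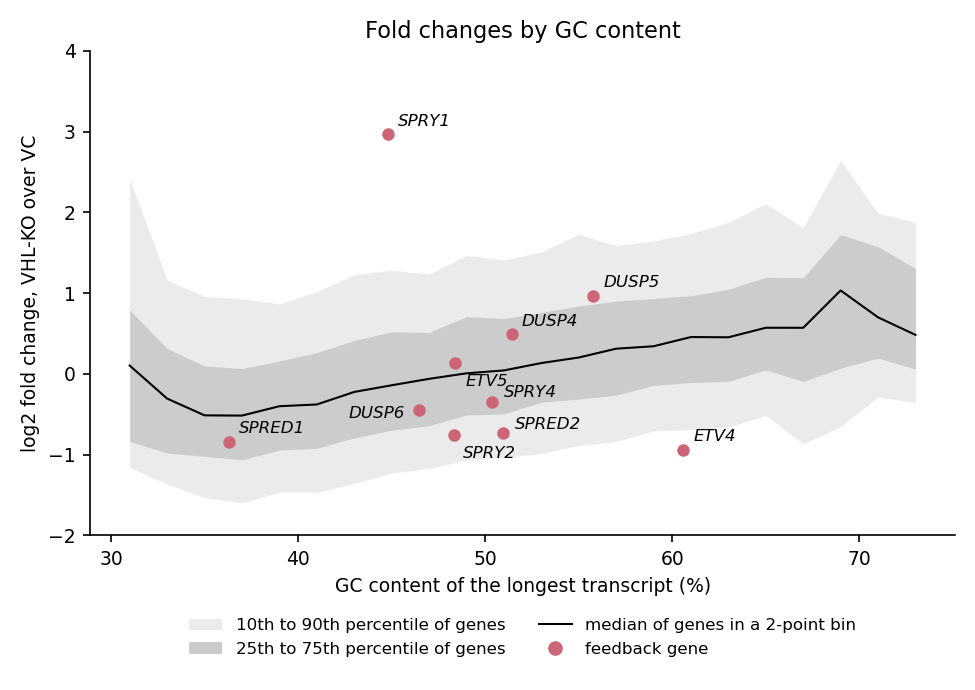
Log2 fold change in VHL-KO over VC cells against the GC content of the longest transcript, in percent, for the 10 feedback genes (points) over the median and the 25th to 75th and 10th to 90th percentiles of annotated genes tested, in bins of 2 percentage points. SPRY1 lies above and ETV4 below the band from the 10th to the 90th percentile of genes of like GC content, and SPRED1 lies within the middle 50%.

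The genes whose log2 CPM over the 6 samples most resembled that of SPRY1, among the 10906 genes compared, were ICA1 (Pearson's r = 0.9995), ROM1 (0.9991) and C1RL (0.9988). ICA1 counts were 204, 203 and 258 (VC) and 520, 438 and 377 (VHL-KO). Each of the 3 was higher in every VHL-KO sample, with log2 fold changes of 1.55, 0.72 and 1.10. As 2465 of the 10906 genes had r above 0.9, this likeness mostly restates the gap between groups and is given as a description.

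Other genes of the pathway were taken from lists written by role, and their counts stand against 28.5% higher and 31.2% lower among all genes tested, so genes on both sides of 0 are no feature of a list. Of 12 growth factor ligands tested, 4 rose and 5 fell (median log2 fold change 0.13). The largest rises were those of FGF18 (2.90), the MET ligand HGF (1.32) and the EGFR ligand TGFA (1.20), and the largest falls were those of FGF1, HBEGF (-1.53) and PDGFB (-1.09). Of 11 receptor tyrosine kinases tested, 2 were higher and 6 lower (median -0.59). ERBB3 (1.52) and ERBB2 (0.31) were higher, the latter not with library size alone (edgeR adjusted p = 0.256). FGFR3 (-4.34), PDGFRB (-1.94) and FGFR2 (-1.67) fell most, FGFR3 from 244, 245 and 258 counts to 7, 11 and 7 counts.

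Among 16 genes of the core cascade, 2 rose and 6 fell (median -0.21), although the number that fell ranged from 4 to 11 over the alternatives. The kinases ERK1 (MAPK3, log2 fold change 1.24) and MEK2 (MAP2K2, 0.47) rose. The phosphatase SHP2 (PTPN11, -1.74), which acts on Sprouty proteins, the FGF receptor adaptor FRS2 (-1.10) and the kinase MEK1 (MAP2K1, -0.65) fell. MEK1 and MEK2 mRNA, coding for the kinases whose phosphorylation of ERK is undone by DUSP5 and DUSP6, thus moved in opposite directions.

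Of 15 other negative regulators tested, 7 rose and 6 fell (median 0.44, against -0.39 for the feedback genes). DUSP9 (1.22), LZTR1 (1.14), an adaptor for RAS degradation, and DUSP16 (0.87) rose most, DUSP9 at 8 to 39 counts and not past the threshold without VC replicate 2 (edgeR adjusted p = 0.0724), without VHL-KO replicate 1 (0.0978) or with GC and length offsets (0.174). RASA1 (-1.86), a GTPase-activating protein for RAS, the ubiquitin ligase CBL (-1.25) and DUSP10 (-0.95) fell most. Of 15 other ERK target genes, 7 rose and 4 fell (median 0.27). The immediate early genes FOS (1.20) and EGR1 (0.85) and the cyclin gene CCND1 (1.07) rose, while FOSB (-1.34), FOSL1 (-1.21) and MYC (-0.82) fell.

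**Figure D5:**
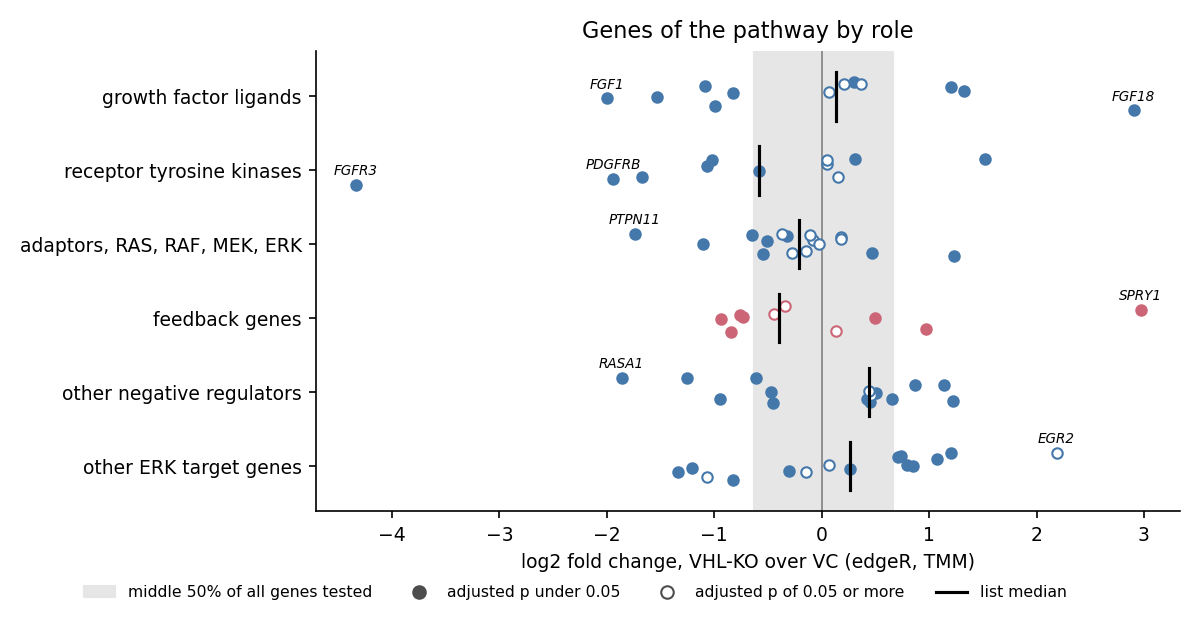
Log2 fold change in VHL-KO over VC cells (edgeR, TMM) of the tested genes in each role of the pathway, filled for adjusted p under 0.05 and open otherwise, with black bars at list medians and grey for the middle 50% of all genes tested; points are spread vertically for legibility, and the genes farthest from 0 are named. The median of the feedback genes is -0.39.

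Markers were checked for the identity of the cells. Of 7 kidney epithelial and carcinoma markers, 6 had counts, with VIM the most abundant, and their summed level was 7831, 8773 and 7595 CPM (VC) and 8683, 8115 and 8456 CPM (VHL-KO). This sum is mostly VIM and does not show the other markers. Of the 6, which were all tested, 4 rose and 0 fell, the largest rise being that of the cadherin gene CDH16, from 6.76 ± 0.988 to 72.2 ± 1.78 CPM (log2 fold change 3.42, edgeR adjusted p = 6.92e-17). PAX8 had 12971 to 16327 counts in each sample, and PAX2 had 0 in all. Leukocyte markers summed to 1.70, 1.72 and 1.32 CPM (VC) and 4.38, 5.24 and 3.89 CPM (VHL-KO), nearly all of it CD14, the only 1 of the 4 that was tested (log2 fold change 1.47), while PTPRC had at most 1 count and CD3E 0 in every sample. The endothelial markers PECAM1, VWF and CDH5 summed to 0.711 CPM or less in each sample, with PECAM1 the most abundant at counts of 1, 5 and 0 (VC) and 14, 7 and 9 (VHL-KO). PECAM1, the only 1 of these tested, was higher in VHL-KO cells (log2 fold change 2.73, edgeR adjusted p = 0.0117). It was not past the threshold without VC replicate 3 (edgeR adjusted p = 0.0648). Fibroblast markers, mostly COL1A1, summed to 43.3, 47.3 and 37.2 CPM (VC) and 29.8, 27.2 and 25.5 CPM (VHL-KO), and DCN had at most 2 counts; the 2 tested, COL1A1 and PDGFRB, fell. Apart from CD14, COL1A1 and PDGFRB, markers of other cell types were thus at low counts or at 0 in both groups.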

How the data were processed

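Per the study's methods and the submitters' processing notes, the authors trimmed reads with Trim Galore and cutadapt, aligned them with STAR to GRCh38.p13, kept uniquely mapped reads with SAMtools and counted them per gene with HTSeq. The values they deposited are raw counts, unfiltered and not pooled; versions, annotation release and strandedness are not given in the sources used here. The 10 members and all lists were chosen with earlier results of these data known, and the core cascade list was shortened by 2 genes after its values were seen, for reasons unrelated to them. Each gene reaching 10 reads in 1 sample or more was tested by edgeR 4.0.16 (TMM factors, quasi-likelihood F test, two-sided, Benjamini-Hochberg adjustment over 17401 genes, threshold 0.05) in R 4.3.3. Standard errors are the absolute log2 fold change divided by the square root of F. The 15 alternatives were DESeq2 1.42.0, relative log expression, upper quartile or no factors, 2 other filters, each of 6 samples left out, the replicate number as a block, offsets for GC content and transcript length (natural splines, 5 degrees of freedom, 17355 annotated genes), and both together. Any real change tied to GC content is taken out by these offsets too. Positions and exon lengths came from GENCODE release 44. Between 0.0790 and 0.141 CPM correspond to 3 counts in a sample, the upper limit that a count of 0 allows for counting error only. Named are VHL and the 10 feedback genes; the 3 largest rises and 3 largest falls past the threshold in each list of ligands, receptors, core cascade, other negative regulators, other ERK targets and HIF targets; the markers of kidney epithelium, leukocytes, endothelium and fibroblasts; and the 3 genes of highest correlation with SPRY1 (log2 CPM, prior count 2, mean of 100 counts or more). Plots were made in Python 3.11.15 using matplotlib 3.10.9.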

Additional observations from a re-analysis of the deposited data

How the results depend on the processing

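DUSP4, DUSP5, SPRY1, SPRY2, SPRED2 and ETV4 kept their direction and stayed past the adjusted p threshold in all 15 alternatives, and SPRED1 in 14. Of the 10 genes, 3 to 4 were called higher and 3 to 6 lower. The median log2 fold change of the 10 was -0.28 with upper quartile factors, -0.59 with library size alone, -0.25 with GC and length offsets and -0.25 with these offsets and the replicate block. With library size alone DUSP6 (-0.64) and SPRY4 (-0.54) passed the threshold. DUSP6 ranged from -0.35 without VHL-KO replicate 2 to -0.55 without VHL-KO replicate 3, passing only in the latter of these 6. With the offsets SPRED1 no longer passed (-0.34) and ETV5 did (0.28); with the block as well, both passed (-0.35 and 0.28). Log2 fold changes of HRAS (0.18) and IER2 (0.27) took the other sign with the offsets, at -0.33 and -0.0866, and again with offsets and block, at -0.33 and -0.0892. HRAS passed the threshold as lower in both of these, and as higher with upper quartile factors and without VC replicate 2. The cause was not tested. After centering within groups, VC and VHL-KO samples of the same replicate number correlated at 0.0627, -0.000449 and 0.0283 across genes. Samples of unlike number correlated at -0.0517 to 0.017. Genes are not independent replicates and each group has 3 samples, so these values cannot decide whether the numbers pair the samples. With a replicate block 10284 genes were called, against 10394 without. Depth limits SPRY1 in VC (33 to 47 counts) and DUSP6 in VHL-KO cells (61 to 87 counts) most.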

Other observations

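The wider families to which the feedback genes belong were also measured; the genes named here were chosen after their values were seen. Of 24 genes with a DUSP symbol, 19 were tested, of which 9 were higher and 5 lower in VHL-KO cells, against 28.5% higher and 31.2% lower among all genes tested. DUSP15 went from 6, 4 and 5 counts in VC to 34, 55 and 33 counts in VHL-KO samples. DUSP23 went from 44.9 ± 4.73 to 81.8 ± 9.45 CPM (log2 fold change 0.87, edgeR adjusted p = 1.94e-07). DUSP12 (edgeR adjusted p = 4.17e-07) had the lowest log2 fold change of the 19, followed by DUSP10 at -0.95 and DUSP11 at -0.82. SPRED3, unlike SPRED1 and SPRED2, was higher, with a log2 fold change of 0.42 (edgeR adjusted p = 0.0277), and passed the threshold in 7 of 15 alternatives. Of 7 genes with an ETV symbol, 2 were higher, 2 lower and 3 not past the threshold. ETV2, at 16 to 40 counts, had the largest log2 fold change of these (1.05, edgeR adjusted p = 0.0155). ETV6 was at 51.4 ± 3.86 CPM in VC and 69.3 ± 5.68 CPM in VHL-KO cells (log2 fold change 0.43, edgeR adjusted p = 0.000726), ETV3 was lower (-0.74), and ETV1, the remaining PEA3 gene, was not past the threshold (-0.14, edgeR adjusted p = 0.571).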
